A study of Schizosaccharomyces pombe with 3 samples.

Results

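The features examined were those of the core histone genes of fission yeast (Schizosaccharomyces pombe) and of its H2A variant gene, on arrays that map where the corepressor Tup11 sits on chromatin. They were chosen by name: every intergenic and open reading frame (ORF) feature of hht1, hht2 and hht3 (histone H3), hhf1, hhf2 and hhf3 (histone H4), hta1 and hta2 (histone H2A), htb1 (histone H2B) and pht1 (the variant H2A.Z). This gave 20 of the 10240 named features on the array, 1 ORF and 1 intergenic feature for each of the 10 genes. Chromatin came from a strain that expresses Tup11 tagged with green fluorescent protein (GFP), harvested in mid-log growth in YES, a rich medium, and was precipitated with an antibody against GFP. The precipitate was hybridised against input chromatin on 3 two-colour arrays that form a single group, with replicates 1 and 2 printed in batch E120D and replicate 3 in batch F060D. No untagged strain, other strain or other medium was analysed here, so each value compares precipitate with input of the Tup11-GFP strain.

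Core histones package DNA into nucleosomes, and many of their genes are transcribed mainly as cells enter S phase. In this yeast each H3 gene lies head to head with an H4 gene, and hta1 lies head to head with htb1, so that a single gap holds the start of both genes. Such gaps carry a repeated AACCCT box, which is bound by the GATA-type factor Ams2 and by the telobox protein Teb1. Tup11 is a counterpart of budding yeast Tup1, which is brought to promoters by DNA-binding proteins and represses transcription; in budding yeast, histone genes are also repressed by the HIRA chaperone complex.

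The stretches below are the parts of the gaps that lie between the annotated transcript starts, and are printed because they hold the box that the core histone gaps share; which bases of a gap each array feature covers is not known here. They were read from the RefSeq assembly ASM294v3, are given on the plus strand, 5′ to 3′, and have the box in capitals (AACCCT, or AGGGTT where it lies on the minus strand). No transcript part upstream of the coding sequence is annotated for hhf3, and the hht3 and hhf3 stretch ends at 150 bases. Those of hta2 and pht1 are the 150 bases next to the transcript start.
hhf1 and hht1, I:4699600-4699731: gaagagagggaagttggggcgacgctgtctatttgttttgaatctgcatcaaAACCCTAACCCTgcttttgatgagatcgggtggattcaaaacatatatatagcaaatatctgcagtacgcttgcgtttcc
hhf2 and hht2, II:1364985-1365118: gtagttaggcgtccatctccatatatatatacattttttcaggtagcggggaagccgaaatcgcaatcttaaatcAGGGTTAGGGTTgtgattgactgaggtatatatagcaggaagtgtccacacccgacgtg
hht3 and hhf3, II:3529566-3529715: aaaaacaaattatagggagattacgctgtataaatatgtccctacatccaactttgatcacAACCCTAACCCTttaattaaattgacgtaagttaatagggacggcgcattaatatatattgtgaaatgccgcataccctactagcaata
hta1 and htb1, III:1412182-1412358: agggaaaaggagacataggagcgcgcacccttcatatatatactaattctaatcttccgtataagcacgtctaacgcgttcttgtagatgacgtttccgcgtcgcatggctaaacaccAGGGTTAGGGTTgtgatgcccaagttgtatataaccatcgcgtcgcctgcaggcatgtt
hta2, I:4053319-4053468: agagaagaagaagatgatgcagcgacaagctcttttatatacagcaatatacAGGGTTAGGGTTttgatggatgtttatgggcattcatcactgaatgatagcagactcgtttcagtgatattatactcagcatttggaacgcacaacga
pht1, II:1503445-1503594: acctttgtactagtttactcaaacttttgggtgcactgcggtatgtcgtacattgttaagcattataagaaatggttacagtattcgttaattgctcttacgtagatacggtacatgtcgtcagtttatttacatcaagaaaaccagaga

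The core histone gaps shared a tandem box. The 12-base tandem AACCCTAACCCT (AGGGTTAGGGTT on the other strand) occurred in the 400 bases 5′ of the coding start of 9 of the 10 genes, all but pht1. Across 5112 protein-coding genes, 17 (0.333%) held this tandem in the same window on either strand, and these 17 include the 9 histone genes. Each head-to-head pair shares a single tandem, so the 9 genes do not hold 9 separate ones. A single AACCCT on either strand was more common, in 649 of those genes (12.7%), and 49 genes (0.959%) held at least 2. No AACCCT was present in the 891-base gap upstream of pht1. A match is a description of the letters and not of a bound site.

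The position of the tandem relative to the transcript starts varied. Between hht1 and hhf1, whose coding sequences are 432 bases apart, the tandem lay 68 bases before the hht1 transcript and 52 bases before the hhf1 transcript. Between hht2 and hhf2, in a gap of 334 bases, it lay 47 bases before the hht2 transcript and 75 bases before the hhf2 transcript. In the 561-base gap of hta1 and htb1 it was nearer to htb1, at 47 bases from its transcript, than to hta1, at 118 bases. It lay 52 bases before the hta2 transcript, and 61 bases before the hht3 transcript in the shortest gap, of 237 bases. Since a shared gap serves both genes, the tandem reads AACCCT on the strand of a single gene of each pair, namely hht1, hhf2, hhf3 and hta1. The map of these gaps shows the tandem outside the annotated transcripts in each of them.

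**Figure D1:**
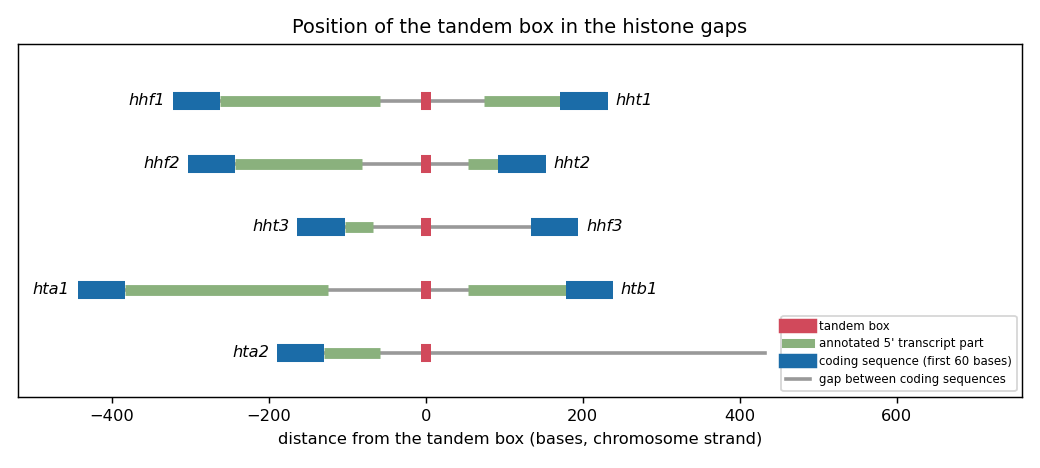
Map of the gaps that hold the tandem box, drawn to scale. The x axis gives the distance from the tandem in bases along the chromosome strand, red marks the tandem, green the annotated 5′ transcript part, blue the first 60 bases of the coding sequence and grey the gap. The box lies outside the annotated transcripts in each gap, and the facing coding sequences are 237 bases apart for hht3 and hhf3 and 561 bases apart for hta1 and htb1.

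Values are given as the log2 ratio of precipitate to input with the array median subtracted, so that 0 is the median feature of that array. The array files do not name the dye of channels A and B, and the direction is therefore not settled by the labels. With channel B divided by channel A throughout, the correlation over features was -0.54 between replicates 3 and 1 and -0.40 between replicates 3 and 2, whereas it was 0.73 between replicates 1 and 2. The channel followed by each array's deposited values was read as the precipitate, which is B on replicates 1 and 2 and A on replicate 3. Each comparison is also given with replicate 3 read by the same channel letters as the others (below, replicate 3 turned), and reading all arrays the other way would turn every sign. Replicates 1 to 3 gave a ratio for 7745, 4361 and 9979 features, and 4236 features were measured on all 3 arrays. Of the 20 histone features, 15 had a ratio on every array, comprising 6 intergenic and 9 ORF features. Each feature stood in duplicate spots, and the number of arrays limits the precision.

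The intergenic features of the histone genes lay above the array median on nearly every array. On replicate 1, 8 of the 9 measured were above 0, where 72.3% of all intergenic features were. On replicate 2 this held for 6 of 6 (75% of all), and on replicate 3 for 10 of 10 (62.3% of all). The 6 features measured on all arrays were above 0 on each of them, as were 43.9% of all 1530 such intergenic features. Their median of the mean ratio was 0.83, against 0.32 over all. Among them the features of hhf2 and hht2 share a gap, as do those of hht3 and hhf3. On replicate 1 the median was 0.63 for these 6, against 0.16 for the 1530 intergenic features measured on all arrays. For all 9 histone intergenic features measured there it was 0.68, against 0.50 for every intergenic feature measured on that array. On replicate 2 the median of these 6 was 0.81, against 0.47 for the 1530. On replicate 3 it was 1.03, against 0.29. For all 10 histone intergenic features on replicate 3 it was 0.73, against 0.15 for every intergenic feature measured there. By limma with Benjamini-Hochberg adjustment over all 4236 features, 2 of the 6 (upstream of hhf2 and hht3) passed at an adjusted p under 0.05 as higher in precipitate and none as lower. In this test 22.7% of intergenic features were called higher and 2.09% lower, and 9.75% of all features higher and 11.6% lower. At an unadjusted p under 0.05 all 6 histone features passed, against 32.0% of intergenic features. The number called depended on the centring: it was 6 when each array was centred on the features measured on all 3, which have a median of -0.47 on replicate 1.

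With replicate 3 read by the same channel letters, the median of these 6 features was 0.15, against 0.07 over all intergenic features. None was then called by limma, and none had an unadjusted p under 0.05; over all 4236 features that reading gave 0 calls, with 10 features above and 133 below at an unadjusted p under 0.05.

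Among the H3 and H4 genes, hhf2 had the highest mean ratio upstream. This feature, in the gap that hhf2 shares with hht2, had ratios of 1.20, 0.50 and 1.59 on replicates 1 to 3. Its mean of 1.10 ± 0.55 (SD, n = 3) was a ratio 2.14 times that of the median feature of the array (limma, adjusted p = 0.0127). The feature named for hht2 in the same gap had 0.58, 0.44 and 1.54 (0.85 ± 0.60, limma adjusted p = 0.0637). Both were highest on replicate 3, and with that array turned their means were 0.04 for hhf2 and -0.17 for hht2. The call upstream of hhf2 was lost without replicate 1 (limma, adjusted p = 0.315), without replicate 3 (0.0665) and with undetected input set low (0.372). The deposited values, which follow a single channel and are not a ratio, gave no call there (limma, adjusted p = 0.149). They gave no call for any of 6778 features, so this is no result about hhf2.

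In the gap of hht3 and hhf3, the hht3 feature varied least among the arrays of all H3 and H4 gap features. Upstream of hht3 the ratios were 0.91, 1.03 and 0.84, the value of replicate 1 resting on 1 spot. The mean was 0.93 ± 0.09 (SD, n = 3; limma, adjusted p = 0.0419), and it was 0.36 with replicate 3 turned. Upstream of hhf3 the ratios were 0.43, 0.78 and 1.23, with replicate 2 resting on 1 spot, and the mean of 0.81 ± 0.40 did not pass (limma, adjusted p = 0.0789). The turned mean for hhf3 was -0.01. The call upstream of hht3 was narrow. It was lost without replicate 1 (limma, adjusted p = 0.356), without replicate 2 (0.205), when limma's prior followed a trend (0.216), and with normexp (0.0621). It was also lost with undetected input set low (0.506), with GC content and length removed (0.0988), and when spots with flag S were kept (0.0519). The deposited values, which gave no call for any feature, gave none here (limma, adjusted p = 0.128).

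The 2 features of the hht1 and hhf1 gap differed in their ratios. Upstream of hht1 the ratios were 0.55, 0.94 and 0.60, with a mean of 0.70 ± 0.21 (SD, n = 3) that did not pass (limma, adjusted p = 0.14). The feature of hhf1 was near the array median, at -0.08 on replicate 1 and 0.09 on replicate 3, and was not measured on replicate 2. The hht1 feature exceeded the hhf1 feature by 0.62 on replicate 1 and 0.51 on replicate 3, although both names point to a single gap. Over all divergent gaps with a pair of features, the median absolute difference was 0.62 and 0.35 on these arrays. The upper quartiles were 1.09 and 0.63, so differences of this size were common. The turned mean of hht1 was 0.30.

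Of the H2A and H2B gap, the feature of hta1 gave the least spread of all histone intergenic features measured on every array. Its ratios were 0.68, 0.85 and 0.77 (0.77 ± 0.08, SD, n = 3), above the array median each time but short of the threshold (limma, adjusted p = 0.0986; turned mean 0.26). The feature of htb1 had 1.56 on replicate 1 and 0.69 on replicate 3 and none on replicate 2. Its input on replicate 1 was dim, at 0.254 times the array median, below which 3.73% of features lay. The feature of hta2, the H2A gene that stands alone, was measured on replicate 3 only, at 0.08. The feature of pht1, whose gap lacks the tandem, had 1.26 on replicate 1 and 0.14 on replicate 3, and its input on replicate 1 was also dim, at 0.261 times the array median. The part of dim input in these ratios was not tested.

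**Figure D2:**
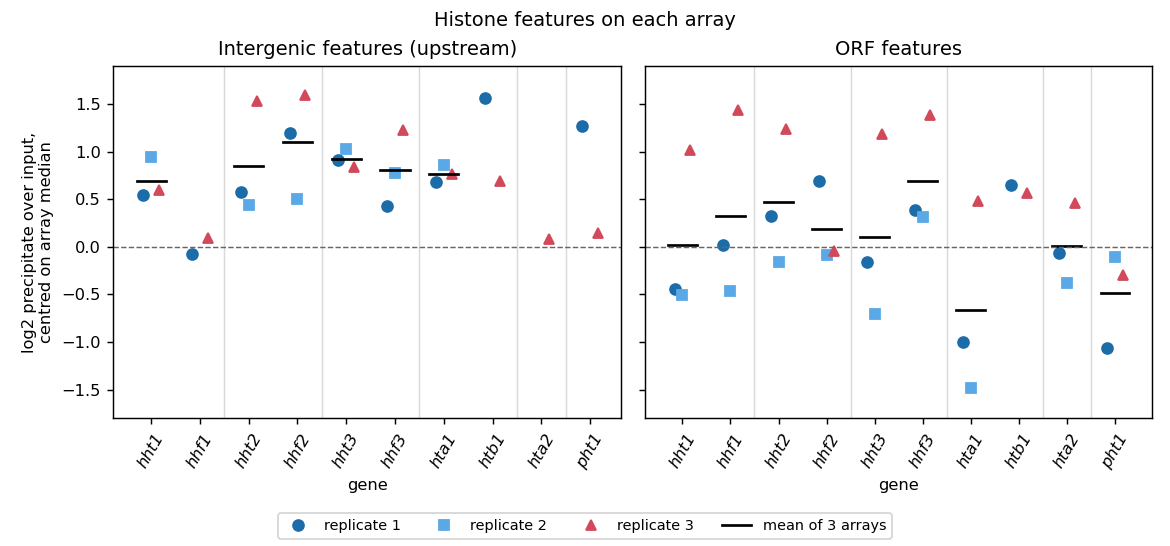
Log2 ratio of precipitate to input (y axis, array median at 0) for the intergenic feature (left) and the ORF feature (right) of each histone gene. Points are the 3 arrays in the likely direction and the black line is the mean where all 3 measured the feature. The intergenic features of hht2, hhf2, hht3, hhf3, hht1 and hta1 lie above 0 on each array, whereas the ORFs of all but hhf2 and pht1 are above 0 on replicate 3 and most are at or below 0 on replicate 2.

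Both features of a shared gap were compared on each array. The hht2 minus hhf2 difference was -0.62, -0.07 and -0.05 on replicates 1 to 3. The hht3 minus hhf3 difference was 0.48, 0.25 and -0.39, so the order changed on replicate 3. The hta1 minus htb1 difference was -0.88 on replicate 1 and 0.08 on replicate 3. Across all divergent gaps with a pair of features, the median absolute difference was 0.62 (n = 526 pairs), 0.57 (n = 151) and 0.35 (n = 994) on replicates 1 to 3. On replicate 2 both measured histone pairs lay below this median, and on replicate 3 the histone pairs lay on both sides of it. The features of a divergent gap correlated across pairs at Spearman's rho of 0.35, 0.37 and 0.50 on replicates 1 to 3. Convergent neighbours gave 0.07, 0.07 and 0.14, and tandem neighbours 0.09, 0.10 and 0.24. The 2 features of a divergent gap share an array and a stretch of DNA and are not independent replicates.

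The histone ORF features, like the histone gaps, had a median above that of their feature class. None of the 9 ORF features measured on all arrays passed in either direction by limma, where 2.44% of ORF features were called higher and 17.0% lower. Of these 9, 1 (hhf3) was higher at an unadjusted p under 0.05, against 3.66% of all ORF features. The 9 histone ORFs had a median of the mean ratio of 0.11, against -0.39 over all ORF features. This median moved with the array, at -0.06, -0.38 and 1.02 on replicates 1 to 3, against -0.78, -0.30 and -0.11 for all ORFs. With replicate 3 turned it was -0.36, against -0.33 for all ORFs, with no call. In that reading 1 histone ORF was lower at an unadjusted p under 0.05, as were 133 of all 4236 features of both kinds.

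The H3 and H4 coding sequences other than hhf2 were highest on replicate 3. The hhf1 ORF had 0.02, -0.46 and 1.43, the largest value of an ORF in this set (0.33 ± 0.98, SD, n = 3). The hht3 ORF had -0.16, -0.71 and 1.18, and the hht1 ORF -0.44, -0.51 and 1.02. The hht2 ORF had 0.33, -0.16 and 1.24. Each of these 4 was highest on replicate 3, and their SDs of 0.71 to 0.98 exceeded their means. The hhf3 ORF was above 0 on every array, at 0.39, 0.31 and 1.38, without passing (0.69 ± 0.60; limma, adjusted p = 0.141). It did pass with loess (1.14; limma, adjusted p = 0.013), with dim spots removed (0.85, 0.0433) and after removing GC content and length (1.04, 0.0157). The hht2 ORF passed with loess (0.87, 0.05 after rounding). Replicate 3 is the array whose direction is in question and the only one of its print batch, and these cannot be told apart.

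The hhf2 ORF differed from the other H4 genes in brightness. Its ratios of 0.69, -0.09 and -0.05 averaged 0.18 ± 0.44 (SD, n = 3), while its precipitate was 10.2, 5.31 and 8.59 times the array median and its input 5.59, 5.40 and 9.19 times. These inputs exceeded those of at least 98.7% of features on each array. The input of the hhf1 ORF was 2.41, 1.57 and 1.23 times the array median, and that of the hhf3 ORF 2.13, 2.41 and 1.83 times. The coding sequences of the 3 H4 genes are 91.3% to 93.3% identical and those of the 3 H3 genes 88.3% to 92.7%. The hta1 and hta2 sequences are 86.5% identical, and pht1 is 57.8% identical to hta1 and 58.7% to hta2. An ORF spot of these families may therefore hold signal of a paralog, and its values are uncertain to that extent; the part of shared sequence in any value was not tested.

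Among the H2A genes, the hta1 ORF was the lowest of the histone features on average. It had -0.998, -1.48 and 0.48 (-0.66 ± 1.02, SD, n = 3; limma, adjusted p = 0.161), low on replicates 1 and 2 and high on replicate 3. The hta2 ORF had -0.06, -0.38 and 0.46, a mean near 0 (0.01 ± 0.42). The htb1 ORF had 0.65 on replicate 1 and 0.57 on replicate 3. The pht1 ORF was below 0 on every array, at -1.06, -0.10 and -0.29 (-0.49 ± 0.51, limma adjusted p = 0.335).

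**Figure D3:**
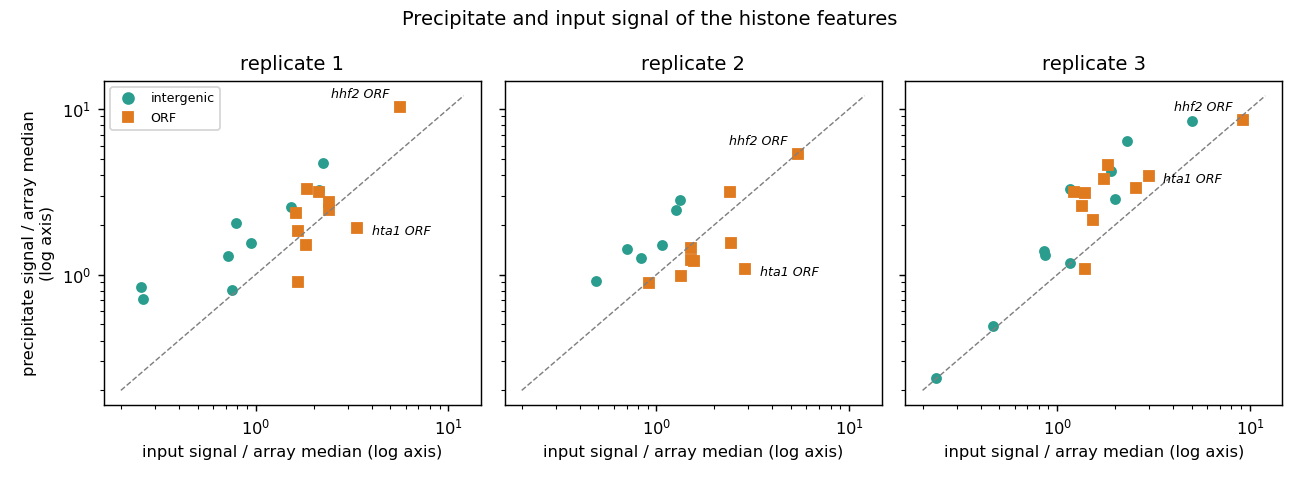
Precipitate against input signal of the histone features on each array, both as multiples of the array's median signal on log axes; the dashed line marks equal multiples. The hhf2 ORF is at the far right of each panel, with input at 5.59, 5.40 and 9.19 times the median, and intergenic features lie mostly above the line.

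The intergenic feature was set against the ORF of the same gene within each array, a difference that centring does not touch. For hta1 it was 1.68, 2.33 and 0.29, positive on each array, with a mean of 1.43 ± 1.05 (SD, n = 3; limma, adjusted p = 0.0207). hta1 was the only call among the 6 histone genes measured for both on all arrays, in a test that called 33.2% of 748 genes higher upstream and 1.07% lower. For hhf2 the difference was 0.51, 0.60 and 1.64, and the mean of 0.91 ± 0.63 missed the threshold (limma, adjusted p = 0.0891).

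For the remaining H3 and H4 genes the arrays differed in size or sign. The difference was 0.99, 1.45 and -0.42 for hht1, and 1.07, 1.74 and -0.34 for hht3, both with the sign turned on replicate 3. It was 0.25, 0.60 and 0.30 for hht2, a small excess on each array (0.38 ± 0.19; limma, adjusted p = 0.469), and 0.04, 0.46 and -0.15 for hhf3. The hhf1 gap feature was below its ORF on both arrays that measured both, with differences of -0.09 and -1.34. Those of htb1, at 0.91 and 0.12, and of pht1, at 2.32 and 0.44, were above their ORF on both arrays. With replicate 3 turned, no gene was called, and hta1 kept its direction with a mean of 1.24 (limma, adjusted p = 0.864). The call of hta1 was lost without replicate 1 (1.31, limma adjusted p = 0.171) and without replicate 2 (0.98, limma adjusted p = 0.319).

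**Figure D4:**
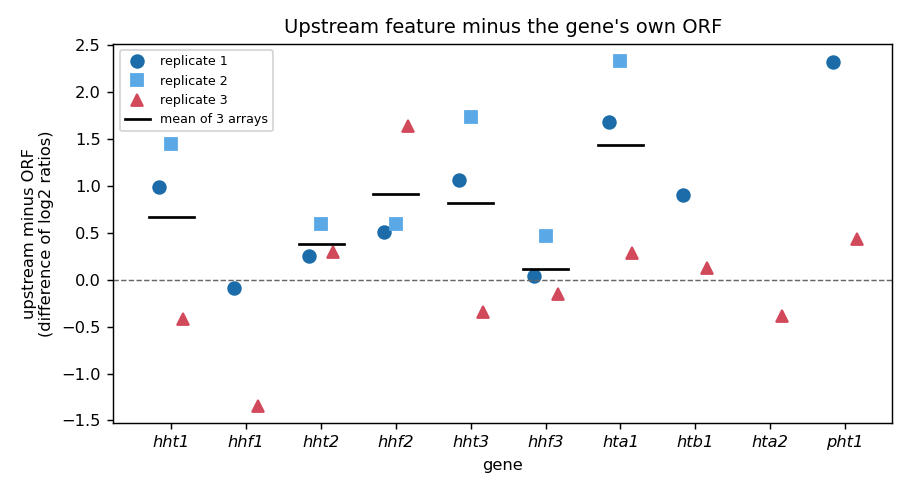
Difference of log2 ratios, intergenic feature minus the ORF of the same gene, for the 10 histone genes. Points are arrays and the black line is the mean where all 3 were measured; hta1 is positive on each array at 1.68, 2.33 and 0.29, and hht1, hht3 and hhf3 are negative on replicate 3.

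The protocol ranks ratios by their median percentile and lists features from the 85th percentile up. By that rule 3 of the 15 histone features were listed, all intergenic: those of hhf2 at percentile 88.9, hht3 at 88.0 and hht1 at 85.2. Of all intergenic features 24.3% were listed, of ORF features 2.44%, and of all features 10.3%. The feature of hta1 lay just outside, at percentile 84.3, followed by those of hhf3 at 81.9 and hht2 at 71.5. With replicate 3 turned none of the histone features was listed, against 14.6% of intergenic features, 2.03% of ORF features and 6.59% of all.

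The surroundings of each locus were set beside the histone features. Of 24 neighbouring intergenic features, 5 were measured on all arrays, with means of -0.16 to 2.13, and 2 were called higher, where 22.7% of all intergenic features were. Of 23 neighbouring ORF features, 8 were measured on all arrays, with means of -1.25 to 1.22, and 1 was called higher (2.44% of all ORFs) and 1 lower (17.0% of all ORFs). Both intergenic features called lie in the gap between SPBC1105.13c and rsv2 (II:3532189-3532930), which starts 2111 bases past the end of the hhf3 coding sequence. The feature named for rsv2, a gene for a zinc finger transcription factor, had 1.95, 1.46 and 2.97 (2.13 ± 0.77, SD, n = 3; limma, adjusted p = 8.55e-08). The feature named for SPBC1105.13c had 1.66, 1.21 and 2.68 (1.85 ± 0.75; limma, adjusted p = 5.09e-06). Both exceeded the hht3 and hhf3 gap features on each array. The SPBC1105.13c ORF, between hhf3 and that gap, was called higher too (1.22 ± 0.64; limma, adjusted p = 0.00527). The rav1 ORF on the other side of hht3 was called lower (-1.25 ± 1.66; limma, adjusted p = 0.00408). Its ratios were -1.70, -2.63 and 0.59, so replicate 3 lay above the array median. With replicate 3 turned the mean was 0.15 for the rsv2 feature and 0.06 for the SPBC1105.13c feature. Every neighbour called lay at this locus. Beside hhf1 and hht1, the feature upstream of aro1 had -0.98, 0.72 and -0.04.

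**Figure D5:**
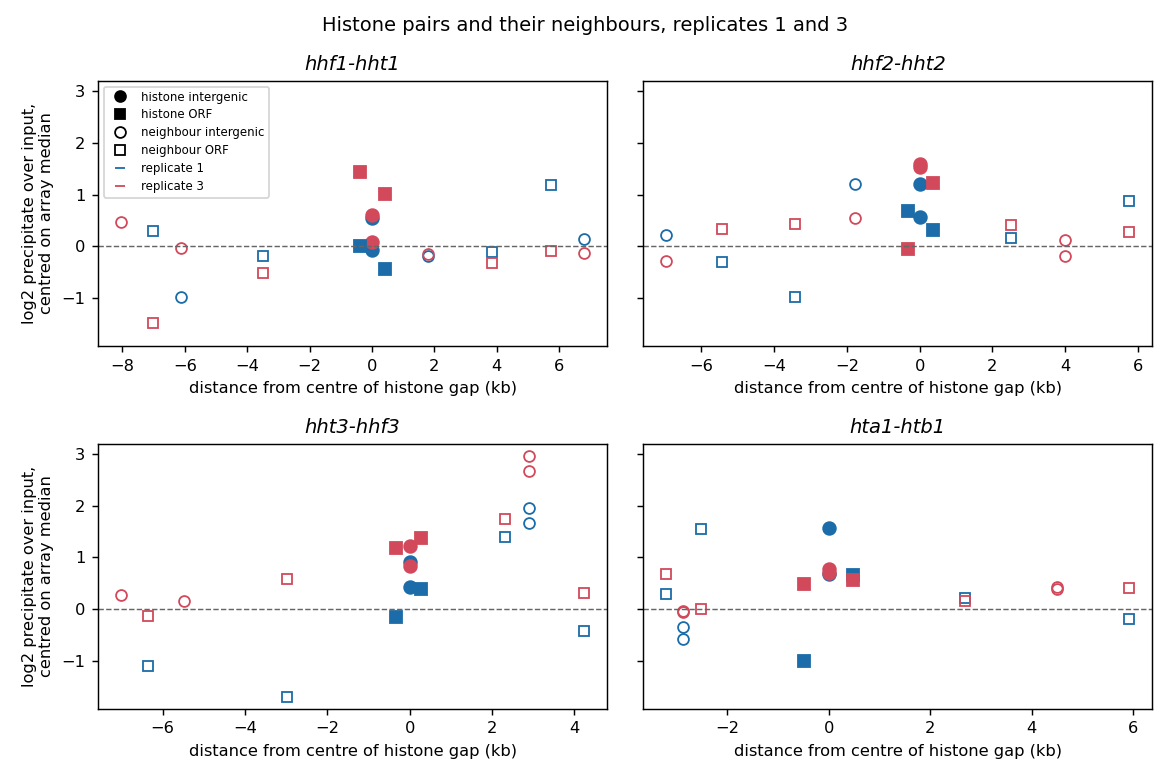
Log2 ratio against distance in kilobases from the centre of each shared histone gap, for replicates 1 (blue) and 3 (red), with histone features filled and features of the neighbouring protein-coding genes open. Beside hht3 and hhf3 the open circles of the rsv2 gap reach 1.95 and 2.97, above the filled circles of the histone gap.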

How the data were processed

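Tup11-GFP precipitate was hybridised against input on 3 arrays of 1 group. Per the labels' protocols the DNA came from separate experiments and was amplified before labelling, so the spread between arrays is that of these amplified samples. The scanner tables as deposited give linear intensity per spot, integrated after local background subtraction, per the file headers, with quantification in TIGR Spotfinder, per the labels' protocols, and with rejected spots at 0. The deposited value tables hold numbers on what appears to be a log10 scale, from comparison with the scanner tables. They appear to follow a single channel, which makes them a brightness and not a ratio of precipitate to input. Their centring and direction are unknown, and their medians were 0.04, 0.14 and 0.01. The deposited values set which channel was taken as precipitate (slopes of 1.07 for B, 0.733 for B and 1.09 for A, after exchanging ORF and intergenic names), and gave an alternative. Their correlation with that channel was 0.63, 0.42 and 0.97 on replicates 1 to 3, weakest on replicate 2. Names came from the scanner tables, whose 64 Ef1-b control spots matched the ef1-b ORF (-0.55, -0.77 and 0.71, against -0.56, -0.96 and 0.52). For the authors' steps, software versions and genome build: not given in the sources used here.

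Spots with flag C and a signal in both channels were used. Log2 ratios of duplicate spots were averaged, centred on each array's median with no loess, and tested against 0 with limma 3.58.1 in R 4.3.3 (lmFit, eBayes, Benjamini-Hochberg over all features measured on 3 arrays). In this fit the standard error was 0.350 for each histone feature tested, while the SD is the feature's own. Its p-values therefore follow the size of the mean and not the feature's own spread between arrays. The upstream minus ORF difference was fitted likewise over genes, with standard errors of 0.391 to 0.443 for the histone genes. The fit was tested on simulated data. Names were matched to RefSeq ASM294v3 (92.2% of features); gap coordinates run between neighbouring coding sequences, as product ends were not used, and both features of a gap share them. Named were all histone features, neighbours by their range and calls, up to 2 highest and 2 lowest called features of each list, and the 3 nearest profiles; neighbours given with values were chosen after their values were seen. The members, lists and tests were chosen with earlier results of these data known. Alternatives covered the direction, each array left out, loess, centring, normexp, limma's prior, undetected or dim spots, missing arrays, GC content and length, spot summary, percentile, flags and the deposited values.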

Additional observations from a re-analysis of the deposited data

How the results depend on the processing

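The number of histone features called higher, 2 of 15, was 0 with replicate 3 read by the same channel letters. With loess it was 7, the hhf3 and hht2 ORFs and the gap features of hht1, hht2, hhf2, hht3 and hhf3. It was 6 when centred on features measured on all arrays, 1 with normexp and 0 with undetected input set low. With dim spots removed it was 6, the same gap features and the hhf3 ORF. With GC content and length removed it was 3, the gap features of hhf2 and hht2 and the hhf3 ORF. A trended prior kept it at 2, with the hta1 gap feature (limma, adjusted p = 0.0491) in place of that of hht3. It was 0 with the deposited values, 1 with flag S spots kept (chosen after seeing the data), and 0 to 1 with an array left out. The number called lower, 0, was 0 to 1 with an array left out, the 1 being the hta1 ORF without replicate 3 (-1.24). The 1 gene called in the upstream minus ORF difference became 0 with the same letters, loess, at least 2 arrays, or after removing GC content and length, and 0 to 3 with an array left out. The 3 listed by rank became 0 with the same letters, 5 at the 80th and 0 at the 90th percentile, and 0 to 4 with an array left out. With the same letters these means turned sign: hhf1 ORF -0.63, hhf3 ORF -0.23, hht1 ORF -0.66, hht2 ORF -0.36, hht3 ORF -0.68, hta2 ORF -0.30, hhf3 gap -0.00803, hht2 gap -0.17, and hhf2 upstream minus ORF -0.18. With undetected input at a low signal the ORFs of hhf1 (-0.10), hhf2 (-0.25), hht1 (-0.41), hht3 (-0.33) and hta2 (-0.42) turned. The deposited values, which follow a single channel and are not a ratio, were 1.02 for the hta1 ORF and 0.0277 for the pht1 ORF. Removing GC content and length turned hhf3 upstream minus ORF to -0.40. With an array left out, means that turned sign ranged as follows: -0.22 to 0.72 (hhf1 ORF), -0.0701 to 0.32 (hhf2 ORF), -0.48 to 0.29 (hht1 ORF), -0.43 to 0.51 (hht3 ORF), -0.22 to 0.20 (hta2 ORF), -0.0553 to 0.25 (hhf3 upstream minus ORF). The cause of these changes was not tested. Over all features, 413 were called higher and 492 lower (45.6% of calls higher). Higher and lower calls numbered 118 and 7 without replicate 1, 559 and 117 without replicate 2, 428 and 905 without replicate 3, 433 and 124 with loess (77.7% higher), 520 and 242 with shared centring (68.2%), 364 and 278 with a trended prior (56.7%), 350 and 262 with normexp (57.2%), 135 and 342 with undetected input set low (28.3%), 672 and 459 with at least 2 arrays (59.4%), 353 and 324 after removing GC content and length, and 0 and 0 with the same letters or the deposited values. For upstream minus ORF, calls higher and lower were 248 and 8, against 53 and 0, 92 and 1, and 347 and 19 without replicates 1, 2 and 3, 100 and 0 with at least 2 arrays, and 86 and 7 with GC content and length removed. No paired analysis was possible because all arrays belong to 1 group. The features upstream of hhf1, htb1, hta2 and pht1 and the htb1 ORF had no ratio on at least 1 array and entered no test over all 3.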

Other observations

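Genes that act on histones were examined by list. The lists were regulators of histone genes with the HIRA complex, histone chaperones, and the centromeric H3 variant with the SWR1 complex. Histone modifiers and S phase targets of the MBF factor were the others. No feature of any list was called higher in precipitate by limma. Of 10 intergenic features measured on all arrays none was called in either direction, where 22.7% of all intergenic features were called higher and 2.09% lower. At an unadjusted p under 0.05, 2 were higher, against 32.0% of all. Of 37 ORF features 7 were called lower and none higher, against 17.0% and 2.44% of all ORF features. The lower calls were thus near the share of all ORFs. At an unadjusted p under 0.05, 0 of these ORFs were higher and 13 lower. Of all ORF features 3.66% were higher at that level, and the share lower was not computed for ORFs alone. Over all 4236 features of both kinds, 588 were higher and 855 lower. That pooled count is no measure for ORFs, which were called lower more often than intergenic features (17.0% against 2.09%). Called lower were the ORFs of hip3, a HIRA subunit (-1.54 ± 1.07, SD, n = 3; limma, adjusted p = 0.000231), and asf1, an H3 and H4 chaperone (-1.06 ± 0.59; limma, adjusted p = 0.0165). So were the ORFs of swr1, the ATPase that exchanges H2A.Z into nucleosomes (-1.33 ± 0.25; limma, adjusted p = 0.00198), and swc4 of the same complex (-0.92 ± 0.72; limma, adjusted p = 0.0436). Among the 9 measured MBF target ORFs, 3 were called lower, where 17.0% of all ORFs were. They included suc22, the small subunit of ribonucleotide reductase (-1.41 ± 0.86; limma, adjusted p = 0.000908). They also included nrm1, a corepressor of MBF (-1.10 ± 1.05; limma, adjusted p = 0.0128). The nrm1 ORF had -1.36, -1.995 and 0.06 on replicates 1 to 3, so replicate 3 did not share its sign. With replicate 3 turned none of these lists had a call, and 2 ORFs had an unadjusted p under 0.05.

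The mean profile of the 6 histone intergenic features was 0.72, 0.76 and 1.09 on replicates 1 to 3. Of 1524 other intergenic features, the nearest in Euclidean distance was that of SPAC2C4.18, with 0.75, 0.69 and 1.10 (distance 0.0731). Next was the feature upstream of rps3001, a ribosomal protein gene, with 0.82, 0.67 and 1.10 (distance 0.132), and then that of SPAC3H1.06c, with 0.66, 0.67 and 1.22 (distance 0.165).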
